A study of Homo sapiens with 24 samples.

Results

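The transcripts of the nuclear genes that encode the mitochondrial respiratory chain and ATP synthase were followed through 6 lists of m6A peaks from human pluripotent stem cells and their pancreatic descendants. Members were all peaks assigned to at least 1 protein-coding gene whose symbol began with NDUFA, NDUFB, NDUFC, NDUFS or NDUFV, was SDHA, SDHB, SDHC or SDHD, or began with UQCR, with COX4 to COX8, or with ATP5. The rule took 653 of 228472 peaks, and 98 of the 19702 protein-coding genes of the annotation carried such a symbol. The lists held 112 of these peaks in hPSCs, 107 in definitive endoderm (DE), 97 in pancreatic progenitors (PP), 123 in human islet-like organoids (hILO), 117 for WT PP and 97 for A5-KO PP.

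In m6A-seq, fragments bound by an antibody against m6A (IP) are compared with the starting fragments (input), and a peak marks excess IP reads. The 24 libraries formed 12 groups of 2, an IP group and an input group per population. All cells came from the MEL1 line, which the study's methods give as MEL1 INSGFP/W, a human embryonic stem cell line with GFP in 1 allele of the insulin gene, so that every group shared this allele. hPSCs were the undifferentiated line and DE, PP and hILO were successive stages of 1 directed differentiation. A5-KO PP were progenitors of a clonal line with CRISPR-Cpf1 indels in the first exon of ALKBH5, which encodes an m6A demethylase, and WT PP were wild type for this gene. The 4 stages were made from mRNA with a SYSY antibody, whereas WT PP and A5-KO PP were made from total RNA with a Millipore antibody and a SMARTer Stranded kit, with rRNA removed from the input. Batch and protocol therefore cannot be told apart, and the cells in culture were mixed, so fewer cells of a type and less RNA per cell cannot be told apart either. One list was deposited per population with reads pooled over its libraries, which left no spread between replicates, and no difference below was tested.

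Each list held peaks on the markers of its label. The 5 pluripotency markers examined had peaks in hPSCs, the 5 endoderm markers in DE, the 5 progenitor markers in PP, WT PP and A5-KO PP, and the 5 islet markers, including INS and GCG, in hILO. All 5 pluripotency markers also had peaks in DE, and 4 of the 5 endoderm markers in WT PP and A5-KO PP. Peaks on ALKBH5, the targeted gene, held 289 input and 836 IP reads in WT PP and 1 input and 592 IP reads in A5-KO PP.

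The respiratory chain passes electrons from NADH (complex I) and succinate (complex II) through complex III to complex IV, which reduces oxygen, and ATP synthase uses the resulting proton gradient to make ATP. Most subunits are encoded in the nucleus, translated in the cytosol and imported, while a few core subunits come from mitochondrial DNA and are not covered by the rule. In pancreatic beta cells this chain couples glucose oxidation to insulin release. m6A is deposited mainly within the DRACH motif (A, G or T, then A or G, then AC, then A, C or T), often in long exons and around stop codons.

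Sequences from 9 transcripts with peaks in all 6 lists were chosen to show what peaks of these genes look like. The windows themselves need not recur, and those covered in all 6 lists are named as such. They were read 5′ to 3′ on the transcript strand from hg38, exon parts joined, with DRACH matches in capitals. NDUFV3, a small accessory subunit of complex I, had more coding bases covered by peaks in all 6 lists than any other member, 400. The 250 bases at chr21:42903701-42903950 on the plus strand lay in coding exon 3 of 4 and held 5 DRACH matches. The 150 bases at chr21:42904026-42904175 lay in the same exon and held 3. Of peaks of all genes within 12 bases of these lengths, 99.6% and 95.9% held at least 1.

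NDUFV3, exon 3, first stretch: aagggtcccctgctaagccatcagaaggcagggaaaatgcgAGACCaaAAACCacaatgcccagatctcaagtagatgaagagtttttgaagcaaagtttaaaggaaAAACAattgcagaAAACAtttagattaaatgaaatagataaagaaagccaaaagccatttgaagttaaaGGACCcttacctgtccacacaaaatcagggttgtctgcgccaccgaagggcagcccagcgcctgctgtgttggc

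NDUFV3, exon 3, second stretch: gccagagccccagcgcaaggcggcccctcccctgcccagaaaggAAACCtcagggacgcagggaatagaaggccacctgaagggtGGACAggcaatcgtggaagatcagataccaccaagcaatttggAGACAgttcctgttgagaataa

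Coding parts of a peak, the one with the most IP reads among peaks with coding bases in the list named, are shown for an inhibitor, a core subunit, an assembly factor at its first exon, an assembly factor at its stop codon and a complex IV subunit. ATP5IF1, the inhibitor of ATP synthase, is shown from its hPSC peak (chr1:28236184-28236398, plus strand, 125 bases over 2 exons). NDUFS1, the largest core subunit of complex I, is shown from its hILO peak (chr2:206147026-206147783, minus strand, 225 bases over 3 exons). NDUFAF2, an assembly factor of complex I, is shown from hILO (chr5:60945280-60945382, plus strand, 103 bases of exon 1). NDUFAF7, a methyltransferase needed for complex I assembly, is shown from WT PP (chr2:37247623-37248350, plus strand, 223 bases ending at the stop codon). COX6A1, a subunit of complex IV, is shown from hPSCs (chr12:120438127-120438388, plus strand, 113 bases over 2 exons).

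ATP5IF1: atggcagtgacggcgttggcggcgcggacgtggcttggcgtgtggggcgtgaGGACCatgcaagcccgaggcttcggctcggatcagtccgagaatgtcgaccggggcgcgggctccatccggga

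NDUFS1: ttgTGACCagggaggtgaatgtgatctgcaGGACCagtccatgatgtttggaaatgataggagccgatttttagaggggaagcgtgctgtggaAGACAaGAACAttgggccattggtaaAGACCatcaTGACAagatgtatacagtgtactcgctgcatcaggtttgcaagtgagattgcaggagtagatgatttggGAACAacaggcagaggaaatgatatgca

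NDUFAF2: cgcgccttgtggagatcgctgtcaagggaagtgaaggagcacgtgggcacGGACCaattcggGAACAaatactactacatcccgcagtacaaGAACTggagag

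NDUFAF7: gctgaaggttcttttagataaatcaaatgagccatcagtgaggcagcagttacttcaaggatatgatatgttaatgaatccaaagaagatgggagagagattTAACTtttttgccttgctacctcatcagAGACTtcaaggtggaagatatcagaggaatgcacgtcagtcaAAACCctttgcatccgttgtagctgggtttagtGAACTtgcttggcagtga

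COX6A1: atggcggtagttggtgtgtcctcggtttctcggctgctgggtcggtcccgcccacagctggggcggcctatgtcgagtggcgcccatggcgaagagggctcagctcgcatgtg

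These windows held 1 match in ATP5IF1, 7 in NDUFS1, 3 in NDUFAF2, 4 in NDUFAF7 and 0 in COX6A1. Among peaks of all genes within 12 bases of the same length, 93.2% held a match at 125 bases, 99.2% at 225 bases, 88.6% at 103 bases and 93.2% at 113 bases. The absence of a match in COX6A1 says only that these letters are not in this window. The 3′ UTR peaks of 3 transcripts are represented by 25-base sites whose DRACH matches lie in stretches covered in all 6 lists, because the peaks over them are compared between populations below. They are UQCR10 of complex III (chr22:29769934-29769958, plus strand), COX7A2L, a factor that joins complexes III and IV (chr2:42351169-42351193, minus strand), and UQCR11 of complex III (chr19:1597903-1597927, minus strand).

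UQCR10 site: attgcccttgAGACCtgcttctaca

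COX7A2L site: tttttggcatAAACCctttgaagtt

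UQCR11 site: tggcTGACAgAAACTgcctatttga

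The UQCR10 and COX7A2L sites each held 1 match and the UQCR11 site held 2, and the windows were centred on a match, so its presence is no result.

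Many peaks that carried a respiratory chain gene's name lay on a neighbour. Of the 653 peaks, 318 named a further gene as well, in places where genes overlap or lie close together. Exon positions placed 209 peaks (32.0%) mostly on exons of another gene. NDUFV2 accounted for 45 of these, which lay on ANKRD12, and UQCR11 for 31 on MBD3. ATP5MG accounted for 38, of which 35 lay on KMT2A and on an overlapping read-through gene model without a symbol, and 3 on that model alone. ATP5MF accounted for 36, which lay on PTCD1 or on its read-through with ATP5MF. ATP5MG, a membrane subunit of ATP synthase, was named in all 6 lists without a peak on its own exons. The remaining 444 peaks had over 50% of their exonic bases on exons of a respiratory chain gene and are called own-exon peaks, a definition chosen after the lists were seen. They numbered 74 in hPSCs, 75 in DE, 69 in PP, 97 in hILO, 73 for WT PP and 56 for A5-KO PP. Of the 444, 49 touched an exon on the opposite strand, and their reads cannot be assigned to 1 gene where strand was not kept.

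Respiratory chain genes carried peaks about as often as all annotated protein-coding genes at the 4 stages and less often in A5-KO PP. The background of all protein-coding genes, here and below, was not limited to expressed genes, because the lists do not hold reads outside peaks. How the members compare with expressed genes was not tested. A peak named 60 of 98 genes in hPSCs, where 60% of all protein-coding genes were named. The count was 54 in DE (all genes, 56.9%), 56 in PP (52%), 62 in hILO (57.5%), 54 for WT PP (62.7%) and 45 for A5-KO PP (69.6%). With own-exon peaks and without the 2 read-through genes, 53 of 96 genes (55.2%, Wilson 95% interval 45.3 to 64.8) had a peak in hPSCs, against 57.8% of all protein-coding genes. The count was 47 in DE (49.0%; all genes, 54.5%), 49 in PP (51.0%; all genes, 49.6%) and 59 in hILO (61.5%; all genes, 55%). It was 49 for WT PP (51.0%; all genes, 60.5%) and 36 for A5-KO PP (37.5%, interval 28.5 to 47.5; all genes, 67.5%). These intervals treat genes as independent and cover counting error only.

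**Figure D1:**
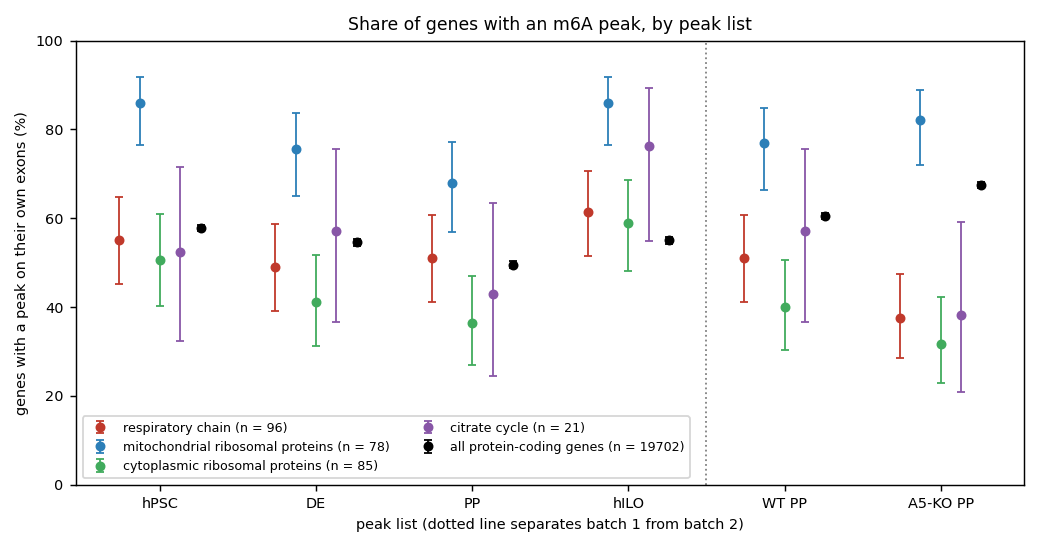
Share of genes with a peak on their own exons (y axis, percent) in the 6 lists (x axis, batches separated by a dotted line) for respiratory chain genes, 3 other gene lists and all protein-coding genes, with Wilson 95% intervals as bars. The respiratory chain share was 61.5% in hILO, against 55% of all genes, and 37.5% in A5-KO PP, below the 67.5% of all genes.

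The members are short transcripts. The median mRNA of the 96 genes was 760.5 nt with a longest exon of 320 nt, against 2901 nt and 1488 nt over all protein-coding genes. Below 800 nt, 54.0% of 50 respiratory chain genes had an own-exon peak in hPSCs, against 22.7% of 1216 coding genes of that length. In hILO these shares were 58.0% and 21.4%, and in A5-KO PP 36% and 21.0%. Short members thus carried peaks at a higher share than all annotated short genes, expressed or not, in these 3 lists. At 3200 nt or more the 10 members showed the opposite order, with 50.0% against 72.4% in hPSCs and 40.0% against 85.7% in A5-KO PP.

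Of the 96 genes, 82 (85.4%) had an own-exon peak in at least 1 list, against 80.6% of all protein-coding genes, and 17 (17.7%) had one in all 6, against 34.8%. These 17 were ATP5IF1, ATP5PF, COX6A1, COX7A2L, NDUFA10, NDUFA6, NDUFAF2, NDUFAF6, NDUFAF7, NDUFC1, NDUFS1, NDUFS3, NDUFS7, NDUFV3, UQCR10, UQCR11 and UQCRB. Their median mRNA was 1072 nt and their median longest exon 789 nt, against 691 nt and 300 nt for the 65 genes with peaks in 1 to 5 lists. In 13 of the 17 some bases were covered in all 6 lists, whereas in ATP5IF1, NDUFS1, NDUFS7 and UQCRB no base was. The ATP5IF1 coding peak and the NDUFS1 3′ UTR peak were each shared across the 4 stages. Of the rest, 14 genes had no own-exon peak in any list.

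**Figure D2:**
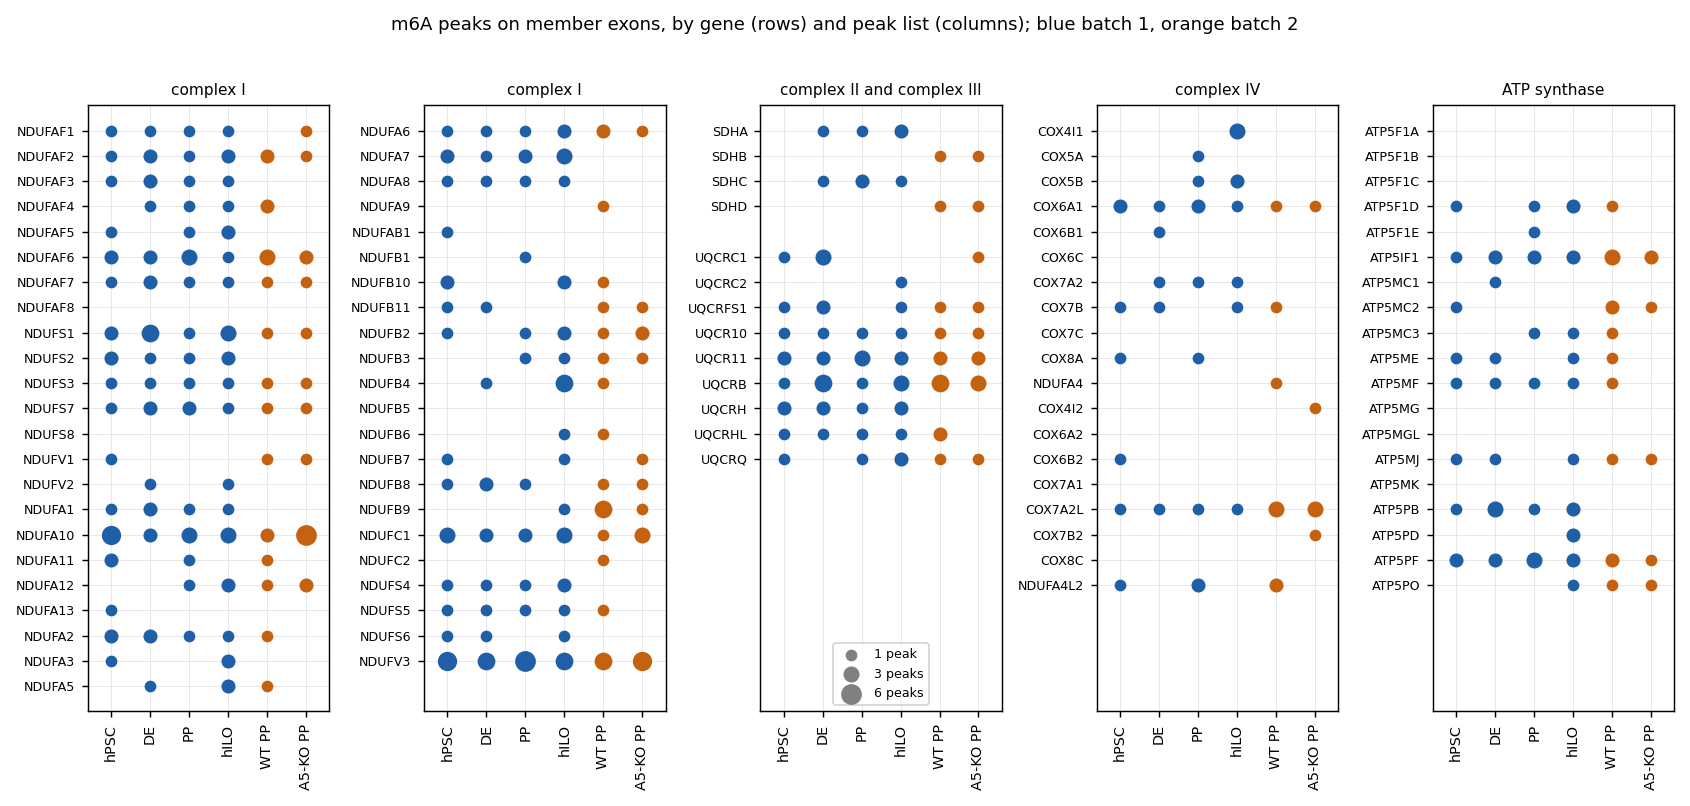
Own-exon peaks of each respiratory chain gene (rows, in panels by complex) in the 6 lists (columns), where a dot marks a gene with a peak, its size the number of peaks, blue the 4 differentiation stages and orange WT PP and A5-KO PP. The 17 genes with dots in all 6 columns include NDUFV3 and UQCR10. Complex I has 27 of 45 genes with dots in WT PP (all genes, 60.5%) and 19 for A5-KO PP (all genes, 67.5%).

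Complex I made up 46.9% of the 96 genes and between 52.8% (A5-KO PP) and 58.5% (hPSCs) of those with a peak in each list. Of its 45 genes, 31 had own-exon peaks in hPSCs, 26 in DE, 27 in PP, 33 in hILO, 27 for WT PP and 19 for A5-KO PP. The shares over all protein-coding genes in these lists, to be read beside the counts of this complex and its parts, were 57.8%, 54.5%, 49.6%, 55%, 60.5% and 67.5%. The 7 core subunits, which bind the flavin, iron-sulfur clusters and quinone, held between 4 and 5 in each list. Of the 30 supernumerary subunits, which surround the core, 20, 15, 16, 21, 19 and 11 had peaks in the same order of lists. Of the 8 assembly factors with an NDUFAF symbol, 4 had peaks in each of WT PP and A5-KO PP and 6 or 7 at the stages.

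The core subunits NDUFS1, NDUFS3 and NDUFS7 had peaks in all 6 lists. The NDUFS7 peaks held 37 input reads in hPSCs, 29 in DE, 54 in PP, 6297 in hILO, 11 for WT PP and 0 for A5-KO PP. Its hILO value stood far above the others, while the IP reads were 281, 156, 478, 16542, 52 and 31. These totals do not come from 1 site, since the hILO peak lay at chr19:1392459-1392733 and the A5-KO PP peak at chr19:1393684-1393833. NDUFV3 had its coding peak in exon 3 in every list. Its log2 enrichment there (IP over input, as deposited, ± counting error of the pooled reads) was 2.25 ± 0.08 in hPSCs, 2.06 ± 0.09 in DE, 1.57 ± 0.04 in hILO, 1.02 ± 0.17 for WT PP and 3.47 ± 0.18 for A5-KO PP. PP had 2 peaks there, at 1.72 ± 0.13 and 0.91 ± 0.07. NDUFAF7 had its peak at the stop codon in all 6 lists, with log2 enrichments of 2.07 in DE, 2.07 in PP, 2.29 in hILO, 5.65 for WT PP and 5.61 for A5-KO PP. Its hPSC value of 3.72 rested on 1 input read and 65 IP reads. NDUFC1, a small membrane subunit, had peaks in the 5′ UTR of its longest isoform in every list. NDUFA10 had 6 own-exon peaks in A5-KO PP, 5 in hPSCs and 2 for WT PP, mostly in its 3′ UTR.

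Complex II, which oxidizes succinate, had different peaked genes in the 2 batches. SDHA, the flavoprotein, and SDHC, a membrane anchor, had own-exon peaks in DE, PP and hILO. SDHB, the iron-sulfur subunit, and SDHD, the other anchor, had them in WT PP and A5-KO PP. hPSCs had none of the 4, where 57.8% of all protein-coding genes had a peak. The SDHC peaks held 166 input and 285 IP reads in DE, 1279 and 3426 in PP, and 2482 and 4709 in hILO. PP and WT PP, which differed in protocol, thus shared 0 of 2 peaked genes of this complex, where 63.3% of all members and 90.4% of all protein-coding genes with a peak in PP had one in WT PP.

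Complex III had 8, 7, 6, 8, 6 and 6 of 9 genes with own-exon peaks, where all protein-coding genes stood at 57.8%, 54.5%, 49.6%, 55%, 60.5% and 67.5%. UQCR10 had a 3′ UTR peak with 175 bases covered in every list, and its input and IP reads were 59 and 963 in hPSCs, 283 and 820 in DE, 67 and 257 in PP, 251 and 685 in hILO, 232 and 2712 for WT PP, and 82 and 114 in A5-KO PP. Its log2 enrichment ran from 2.53 ± 0.19 in hPSCs through 1.97 ± 0.10 in DE and 1.66 ± 0.20 in PP to 1.58 ± 0.11 in hILO. It was thus lower in hILO than in hPSCs by more than the counting errors, while PP and hILO differed by less. In the other batch it was 6.11 for WT PP and 2.81 for A5-KO PP. The UQCR11 peak over the site shown had log2 enrichments of 1.79, 1.70, 1.26 and 1.64 at the 4 stages, 3.05 for WT PP and 5.17 for A5-KO PP. The last value rested on 9 input and 77 IP reads. Another WT PP peak, which overlapped this A5-KO PP peak, was at 2.05 on 85 input and 126 IP reads. A further UQCR11 3′ UTR peak stood at 3.96 and 4.04 in the last 2 lists, a difference within the counting errors. UQCRH, the hinge protein, has a near-identical copy, UQCRHL, and reads of the pair may have been split between them. Its peaks were present at the 4 stages and in neither WT PP nor A5-KO PP, and UQCRHL had peaks in all lists except A5-KO PP.

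Of the 11 ubiquitous subunits of complex IV, 9 (81.8%) had an own-exon peak in at least 1 list, against 80.6% of all protein-coding genes. The count was 3 in hPSCs (27.3%; all genes, 57.8%), 4 in DE (36.4%; all genes, 54.5%), 5 in PP (45.5%; all genes, 49.6%) and 5 in hILO (45.5%; all genes, 55%). It was 3 for WT PP (27.3%; all genes, 60.5%) and 1 for A5-KO PP (9.09%; all genes, 67.5%). The gene left in A5-KO PP was COX6A1, whose 3′ UTR peak had log2 enrichments of 1.48, 2.20, 2.42 and 1.47 at the 4 stages, 2.71 for WT PP and 2.52 for A5-KO PP. The hPSC value rested on 24 input reads and the PP value on 9 input and 59 IP reads. COX6C and COX7C, both small membrane subunits, had no peak in any list. COX4I1, the main isoform of a regulatory subunit, had own-exon peaks in hILO alone, with 6462 input and 8948 IP reads over 3 peaks. The COX7A2L peak over the site shown, near the stop codon, had log2 enrichments of 1.46, 1.42, 1.26 and 0.90 at the stages, so that hILO was the lowest, and 2.79 for WT PP and 2.78 for A5-KO PP. NDUFA4L2, a protein related to a complex IV subunit and known as a hypoxia-responsive gene, had 2 peaks in WT PP with 11472 input and 39936 IP reads and none in A5-KO PP.

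ATP synthase had 8, 7, 7, 10, 9 and 5 of 19 genes with own-exon peaks. For this complex and its parts, the shares over all protein-coding genes were 57.8%, 54.5%, 49.6%, 55%, 60.5% and 67.5% in that order. The catalytic F1 part stood at 1, 0, 2, 1, 1 and 0 of 5. ATP5F1A, ATP5F1B and ATP5F1C, the alpha, beta and gamma subunits, had no peak in any list. ATP5F1D, the delta subunit, had peaks in hPSCs, PP, hILO and WT PP. The peripheral stalk, which holds F1 still, had peaks on 4 of 4 genes in hILO and 2 of 4 in each other list. ATP5PF of the stalk kept a 5′ UTR peak in every list, on its longest isoform, with log2 enrichments of 1.73, 1.37, 1.40 and 1.72 at the stages, 3.44 for WT PP and 3.87 for A5-KO PP. A gene without a peak may lack m6A or may have had too few reads, and the lists do not hold reads outside peaks.

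Member peaks were placed by midpoint on the longest coding isoform. On this isoform the 5′ UTR share stood above that of all genes by its 95% interval in hPSCs, PP, WT PP and A5-KO PP, and the CDS share below it in PP, WT PP and A5-KO PP. On the MANE isoform, the transcript marked as the reference of its gene, the 5′ UTR interval held the share of all genes in every list. The CDS interval on that isoform stood below the share of all genes in PP and, narrowly, in A5-KO PP. The 5′ UTR differences and the CDS difference of WT PP therefore depended on the isoform. Of 305 such peaks over all lists, 46 (15.1%) were in the 5′ UTR, 124 (40.7%) in the coding sequence (CDS) and 135 (44.3%) in the 3′ UTR. The 5′ UTR share was 18.2% in hPSCs against 6.99% of peaks on all protein-coding genes, 8.70% in DE against 4.67%, 16.3% in PP against 5.94% and 6.67% in hILO against 3.82%. It was 22.4% in WT PP against 7.11%, and 24.3% in A5-KO PP against 6.31%. NDUFC1 supplied 14 of the 46 and ATP5PF 6. The CDS share was 43.6% in hPSCs (all genes, 52.7%), 45.7% in DE (50.7%), 32.6% in PP (55.8%), 54.7% in hILO (53.5%), 32.7% for WT PP (48.8%) and 21.6% for A5-KO PP (56.3%). On the MANE isoform the CDS share was 38.9% of 36 peaks in PP (interval 24.8 to 55.1; all genes, 57.3%), 44.7% of 38 for WT PP (30.1 to 60.3; all genes, 50.0%) and 38.5% of 26 for A5-KO PP (22.4 to 57.5; all genes, 57.6%). The 5′ UTR share on that isoform was 10.4% in hPSCs (interval 4.53 to 22.2; all genes, 6.05%), 8.33% in PP (2.87 to 21.8; all genes, 5.03%), 10.5% for WT PP (4.17 to 24.1; all genes, 6.26%) and 7.69% for A5-KO PP (2.14 to 24.1; all genes, 5.30%). NDUFV3 supplied 12 of the 124 CDS peaks and NDUFA10 15 of the 135 in the 3′ UTR. Within 200 nt of the stop codon lay 45.3% of hILO peaks against 21.7% over all genes, and 29.1% of hPSC peaks against 20.7%.

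**Figure D3:**
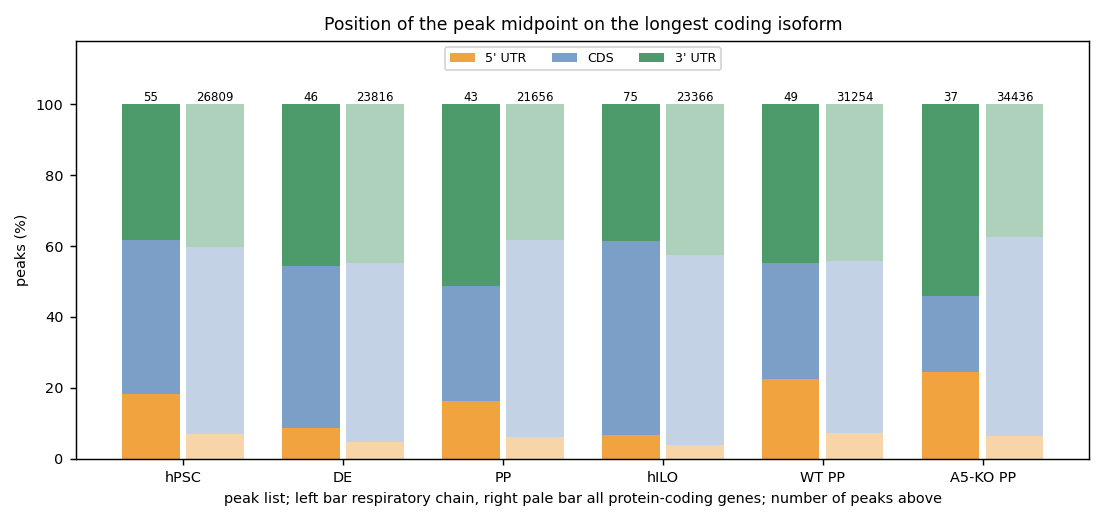
Share of peaks (y axis, percent) whose midpoint lay in the 5′ UTR, CDS or 3′ UTR in each list (x axis), for respiratory chain genes (left, dark bars) and all protein-coding genes (right, pale bars), with the number of peaks above each bar. The CDS share of the members was 54.7% in hILO and 21.6% in A5-KO PP (38.5% on the MANE isoform, not drawn).

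DRACH matches were less dense in own-exon peaks than in all peaks at the 4 stages. Among peaks of up to 1000 exonic nt, the members had 1.90 matches per 100 nt in hPSCs, 1.97 in DE, 1.70 in PP and 2.09 in hILO, against 2.25, 2.33, 2.31 and 2.31 over all protein-coding genes. In WT PP they had 2.25 against 2.19, and in A5-KO PP 2.16 against 2.25. On the opposite strand, given for comparison, the members had 1.70, 1.75, 1.91, 1.67, 1.93 and 1.81. All peaks had 1.47, 1.53, 1.52, 1.52, 1.57 and 1.59 there. The excess over the opposite strand was thus smaller for the members than for all peaks in every list. By density, PP was the only list in which the members had fewer matches on their own strand than on the opposite strand. At least 1 match was present in 73.9% (PP) to 89.3% (DE) of own-exon peaks and 80.4% to 91.6% of named peaks, against 89.0% to 93.1% of all peaks. The opposite strand held a match in more own-exon peaks than the own strand in hPSCs (90.5% against 82.4%) and PP (81.2% against 73.9%). These shares were equal in hILO and higher on the own strand in DE, WT PP and A5-KO PP.

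Enrichment of the members was close to that of all peaks or somewhat lower. The median log2 enrichment of own-exon peaks with at least 50 input reads was 1.52 in hPSCs (95% interval 1.42 to 1.59) against 1.66 over all protein-coding genes. It was 1.53 in DE against 1.64, 1.36 in PP against 1.55, 1.51 in hILO against 1.47, 3.18 for WT PP against 3.50, and 3.47 in A5-KO PP against 3.70. Each list was scaled on its own, so levels in the batches are not comparable. The highest members at this depth were UQCR10 in hPSCs (2.53), NDUFV2, a core flavoprotein-module subunit, in DE (3.19), UQCRB, which binds ubiquinone, in PP (2.91), NDUFB4 in hILO (2.84), NDUFA6 for WT PP (7.16) and NDUFAF7 in A5-KO PP (5.61).

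**Figure D4:**
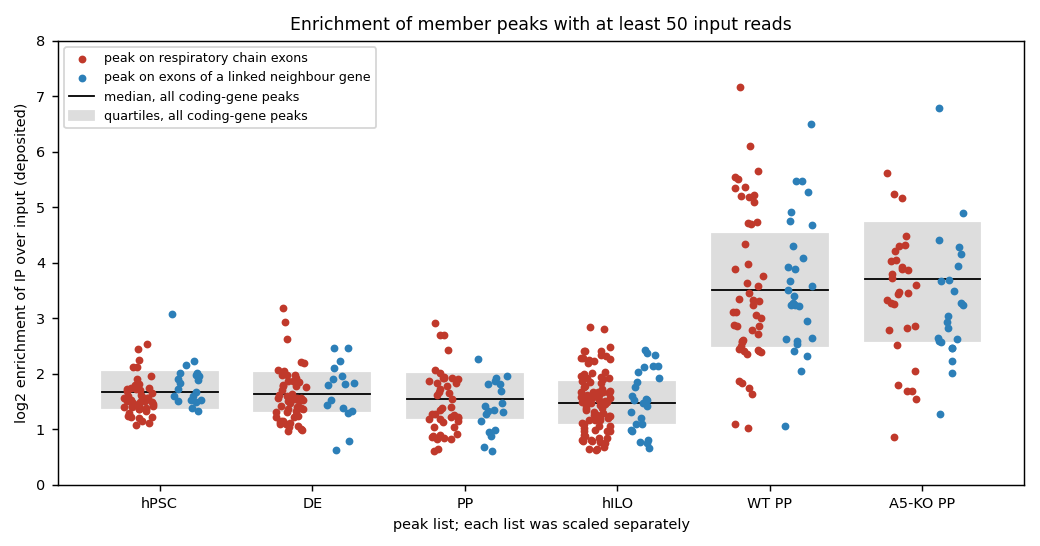
Deposited log2 enrichment (y axis) of each peak with at least 50 input reads in the 6 lists (x axis), red on respiratory chain exons and blue on exons of a neighbour, with the median and quartiles of all peaks on protein-coding genes as line and grey box. Own-exon medians were 1.36 to 1.53 at the 4 stages, 3.18 for WT PP and 3.47 for A5-KO PP, near the lines.

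In the deposited lists 59 members had own-exon peaks in hILO and 53 in hPSCs, a difference whose sign depended on the filter. At an IP/input ratio of at least 2 the counts were 51 and 53, and with named peaks 54 and 60. The lowest deposited log2 enrichment of a member was 0.63 in hILO and 1.05 in hPSCs, so this ratio removed no member peak of hPSCs. With own-exon peaks hILO had more under the other 7 of 8 settings, and with named peaks both had 33 at a ratio of at least 3. Over all protein-coding genes hILO also had more at p below 1e-05 (10573 against 9343 in hPSCs) and at p below 1e-10 (9199 against 7167). The same held at 50 or more input reads (10495 against 8816). Under the remaining settings, the deposited lists among them (10837 against 11392), hILO had fewer genes. Median input per own-exon peak was 342 reads in hILO and 121 in hPSCs, and the part of depth in the counts was not tested. The median difference in enrichment at shared peaks was near 0. Of 53 genes with own-exon peaks in hPSCs, 42 (79.2%) kept one in hILO, against 80.7% of all protein-coding genes, and 17 of the 43 others (39.5%) had one in hILO, against 19.8% of all genes without an hPSC peak. The 17 included SDHA and SDHC of complex II. By position, 42.3% of named hILO peaks had more than 50% of their exonic length covered by an hPSC peak, and 36.1% of own-exon peaks, against 56.1% of all peaks. Among 33 shared pairs in which each peak held 50 or more input reads, the median difference, hILO minus hPSC, was −0.08 (95% interval −0.45 to 0.19), against −0.32 over all pairs. Over all 52 named pairs the median was −0.09 with the deposited log2 and 0.22 with the centred ratio of deposited reads, so its sign depended on the measure. A log2 increase of at least 1 was seen in 0 of 33 (1.23% of all pairs) and a decrease of at least 1 in 2 of 33 (12.8% of all pairs). The 2 were an NDUFC1 5′ UTR peak, at 2.11 in hPSCs and 0.68 in hILO, and an ATP5F1D 3′ UTR peak, at 1.91 and 0.81. ATP5MJ, a small membrane subunit of ATP synthase, was at 1.41 and 2.40, and UQCRB was at 1.36 and 2.34.

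From stage to stage, named peaks recurred at shares whose 95% intervals held the share of all peaks, and own-exon peaks at lower shares in DE and hILO. Of named DE peaks 58.9% (interval 49.4 to 67.7) were covered by an hPSC peak, against 66.7% of all peaks. Of named PP peaks 58.8% (48.8 to 68.0) were covered by a DE peak, against 57.9%, and of named hILO peaks 39.8% (31.6 to 48.7) by a PP peak, against 46.3%. Of own-exon peaks these shares were 54.7% (interval 43.4 to 65.4), 56.5% (44.8 to 67.6) and 33.0% (24.4 to 42.8). Across protocols, 52.6% of PP peaks were covered by a WT PP peak, against 60.3% of all peaks, and 29.9% of WT PP peaks by a PP peak, against 23.5%. Of own-exon peaks these were 43.5% (32.4 to 55.2) and 32.9% (23.2 to 44.3), and with reciprocal overlap the named shares were 23.7% and 19.7%. The following counts are of shared peaks with 50 or more input reads. From hPSCs to DE, 0 of 31 pairs were higher by at least 1 on the log2 scale (all pairs, 1.95%) and 0 lower (3.74%). From DE to PP, 1 of 32 (3.13%) was higher (all pairs, 4.18%) and 3 (9.38%) lower (all pairs, 6.29%). From PP to hILO, 0 of 36 were higher (all pairs, 3.05%) and 5 (13.9%) lower (all pairs, 9.03%), 4 of them among 23 own-exon pairs (17.4%).

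Fewer respiratory chain genes had peaks in A5-KO PP than in WT PP, while over all protein-coding genes the order depended on the filter. Of 49 genes with own-exon peaks in WT PP, 31 (63.3%) kept one in A5-KO PP, against 91.0% of all protein-coding genes, and 5 of the 47 others (10.6%) had one in A5-KO PP alone, against 31.4% of all genes. The 18 seen in WT PP alone comprised 10 of complex I, among them NDUFA2, NDUFA5 and NDUFS5, 4 of ATP synthase, among them ATP5F1D and ATP5MC3, 3 of complex IV and UQCRHL. The 5 were COX4I2, COX7B2, NDUFAF1, NDUFB7 and UQCRC1. Transcripts under 1600 nt were kept in 23 of 34 cases (67.6%) against 75.8% of coding genes of that length, and longer ones in 8 of 15 (53.3%) against 93.0%. Under each of 8 settings, the deposited lists and filters on IP/input ratio, p, input reads and gene assignment, A5-KO PP had fewer peaked members than WT PP, and a smaller share was kept among members (28.0% to 63.3%) than among all genes (64.9% to 91.3%). Over all protein-coding genes A5-KO PP had more peaked genes under 6 of the 8 and fewer under p below 1e-10 (7288 against 7451) and at least 50 input reads (9733 against 9759). PP and WT PP, the same stage prepared by the 2 protocols, also shared 31 of the 49 PP genes (63.3%), against 90.4% of all genes. Median input was 110 reads per named peak for WT PP and 73 for A5-KO PP, against 80 and 33 over all peaks. Peaks with 0 input reads made up 10.3% and 19.6% of named peaks, against 11.5% and 24.6% of all peaks, so input was lower in A5-KO PP for members and for all peaks. Its part in the counts was not tested.

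By position, 67.0% of named A5-KO PP peaks were covered by a WT PP peak, against 53.1% of all peaks, and 57.1% of own-exon peaks were. Of named WT PP peaks 43.6% were covered by an A5-KO PP peak, and 37.0% of own-exon peaks, against 50% of all peaks. Among 25 shared pairs with 50 or more input reads on each side, the median difference in log2 enrichment, A5-KO PP minus WT PP, was −0.05 (95% interval −1.70 to 0.22), against 0.01 over all pairs of that depth. Over all 65 named pairs it was −0.01, against 0.22 over all pairs, and −0.44 with the centred ratio of deposited reads. Of the 25 pairs, 2 (8.00%; all pairs of that depth, 22.5%) differed by at least 1 upward and 9 (36%; all pairs of that depth, 20.9%) downward. On own exons these were 2 and 5 of 14 pairs, and the other downward pairs were named for NDUFV2 and lay on ANKRD12. Without the depth limit, 21 of the 65 (32.3%; all pairs, 36.8%) were higher by at least 1 and 24 (36.9%; all pairs, 28.3%) lower. Several pairs share a WT PP peak, as the NDUFC1 pairs do.

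The 25 pairs with 50 or more input reads on each side differed in both directions. The UQCR10 3′ UTR peak was at 6.11 for WT PP (232 input and 2712 IP reads) and 2.81 for A5-KO PP (82 and 114), a difference of −3.29 ± 0.23. An NDUFA12 3′ UTR peak, on a complex I accessory subunit, was at 4.70 and 1.80 (difference −2.90 ± 0.19). A peak named for NDUFV2 but lying on ANKRD12 exons had the most negative difference of the 25, −4.04 ± 0.24. The 2 of these pairs that were higher by at least 1 were the NDUFV3 coding peak and UQCRQ of complex III. NDUFV3 went from 1.02 (185 and 121 reads) to 3.47 (87 and 284), +2.46 ± 0.24, and UQCRQ from 3.97 to 5.17, +1.20 ± 0.28. UQCRQ was at +0.55 when the ratio of deposited reads, centred on all pairs, was used in place of the deposited log2. NDUFAF7 and COX7A2L were within 0.04 of 0. These errors count reads only and hold no spread between libraries.

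**Figure D5:**
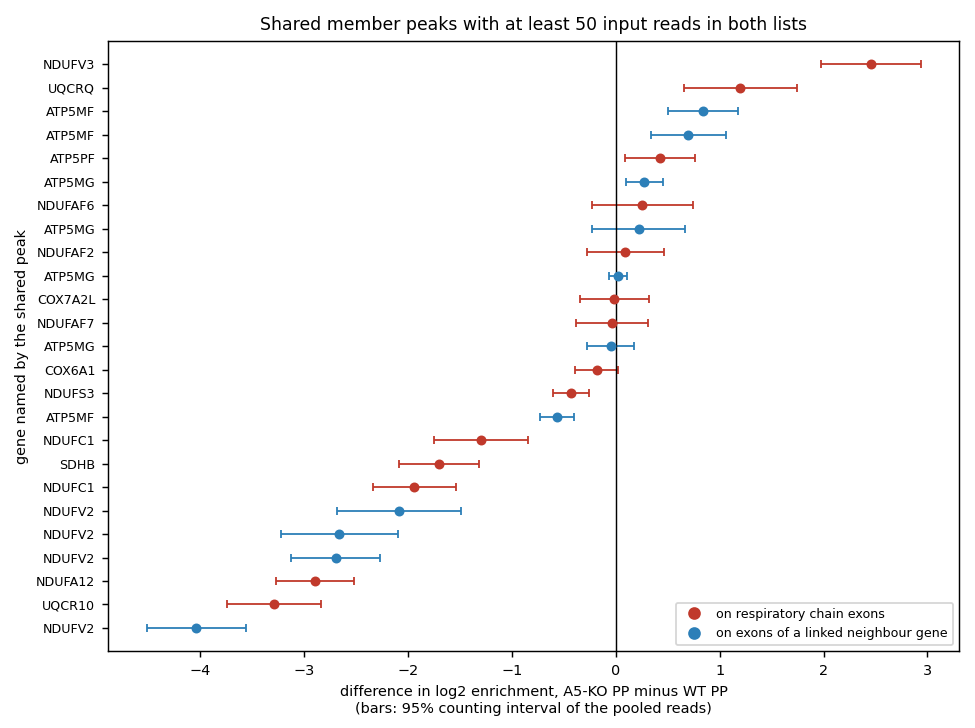
Difference in log2 enrichment, A5-KO PP minus WT PP (x axis), of the 25 shared pairs with 50 or more input reads on each side (rows, by the gene named), red on respiratory chain exons and blue on a neighbour's, with bars for 95% counting intervals. NDUFV3 lies highest at +2.46, UQCR10 at −3.29 and the lowest NDUFV2-named pair at −4.04.

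Related gene lists gave the following counts, and differences between lists were not tested. Beside them, all protein-coding genes stood at 57.8% in hPSCs, 54.5% in DE, 49.6% in PP, 55% in hILO, 60.5% for WT PP and 67.5% for A5-KO PP. Mitochondrial ribosomal protein genes with own-exon peaks numbered 60 of 78 for WT PP and 64 for A5-KO PP, and assembly factors outside the rule 38 and 36 of 43. Genes of electron carriers stood at 10 and 10 of 13. Cytoplasmic ribosomal protein genes, which are also short, numbered 34 and 27 of 85, and citrate cycle genes 12 and 8 of 21. At the 4 stages, cytoplasmic ribosomal protein genes numbered 43, 35, 31 and 50, mitochondrial ribosomal protein genes 67, 59, 53 and 67, and citrate cycle genes 11, 12, 9 and 16. Assembly factors outside the rule numbered 37, 32, 32 and 35, and electron carriers 10, 11, 10 and 8, so that hILO was highest in some lists and lowest in the last.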

How the data were processed

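The data were m6A-seq libraries of 6 populations, as 12 groups of 2. Per the study's methods and labels, the authors trimmed reads with fastp, aligned them with HISAT2 to hg38, and called peaks with exomePeak2 (version not given in the sources used here), 1 list per population from both libraries. HOMER is named in the submitters' processing notes. The deposited counts of IP and input reads are pooled per peak, and whether they were added or averaged over libraries is not stated. The deposited log2 enrichment comes from the peak caller, was at least 0.585 in each list, and departs from the log2 ratio of the counts by an amount that depends on GC content. The deposited p-value of each peak was used only as a filter in alternatives. The planned count model needs values of single libraries and was not fitted, and no p-values between conditions are given.

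Peaks were matched to GENCODE 44 exons by the deposited gene identifiers. A deposited peak spans introns, and its exonic bases were those on exons of its named genes. A peak was own-exon when over 50% of these lay on exons of a respiratory chain gene, and shared when same-strand peaks of the other list covered over 50% of its exonic bases. Enrichment comparisons took at least 50 input reads in both lists. Regions followed the longest coding isoform. Counting errors of a log2 value came from the pooled reads, with 0.5 added to each count. Shares have Wilson 95% intervals and medians have 95% order-statistic intervals, which cover counting error only and treat peaks or genes as independent. Genes named with values were those with peaks in all 6 lists, the 3 most enriched peaks per list, the members with the most peaks or input reads, and the 3 largest differences each way. The members and lists were chosen with earlier results of these data known. Sequences were read from hg38. Python 3.11.15, pandas 2.3.3, numpy 2.4.6, scipy 1.17.1 and matplotlib 3.10.9 were used, and the matching and counting steps were tested on simulated data.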

Additional observations from a re-analysis of the deposited data

How the results depend on the processing

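The lists pool the libraries of a group, so leaving out a library was not possible, and no spread between replicates bounds any value here. No paired analysis was possible because the values used here pool both libraries of a group. Read depth limited the values, since 12 named peaks of WT PP and 19 of A5-KO PP had 0 input reads (10.3% and 19.6%, against 11.5% and 24.6% of all peaks), and a gene without a peak cannot be told from a gene with too few reads. Of 183 alternative values for 49 results, 113 stayed within 1.5 times the count, or within the interval, of the value given above. An IP/input ratio of at least 2, at least 10 input reads, subunits without assembly factors, and, for enrichment values, at least 50 input reads moved none of the results they were applied to beyond that, but the ratio of at least 2 turned the order of hILO and hPSCs, with 54 and 60 named genes in place of 62 and 60. For peaked genes, at least 50 input reads left 35 members for WT PP and 24 for A5-KO PP, with 45.7% of the first kept.

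The cause of the following changes was not tested beyond what each alternative removes. At IP/input of at least 3, named peaks were 56 in hPSCs, 58 for DE, 46 for PP and 53 for hILO, and named genes were 33, 35, 36 and 33. At p below 1e-05, peaks were 74 in hPSCs, 68 in DE, 56 in PP, 67 for WT PP and 51 for A5-KO PP, and PP genes were 37. At p below 1e-10, peaks were 45, 52, 28, 81, 44 and 21 in hPSCs, DE, PP, hILO, WT PP and A5-KO PP, and genes were 37 in hPSCs, 33 in DE, 24 in PP, 31 for WT PP and 20 for A5-KO PP. With peaks that carry 1 gene identifier, peaks were 52, 59, 51, 76, 55 and 41 in that order of lists, and genes were 38 in hPSCs, 36 in PP, 33 for WT PP and 25 for A5-KO PP. With own-exon peaks, an alternative chosen after seeing the data, peaks were 74 in hPSCs, 73 for WT PP and 56 for A5-KO PP, and 57.1% of A5-KO PP peaks were shared with WT PP. With any overlap counted as shared, 55.3% of hILO peaks were shared with PP, 56.1% of hILO with hPSCs, 53.8% of WT PP with A5-KO PP and 42.7% of WT PP with PP. With reciprocal overlap above 50%, 38.1% of PP peaks were shared with DE, 40.2% of A5-KO PP with WT PP, 34.2% of WT PP with A5-KO PP, 23.7% of PP with WT PP and 19.7% of WT PP with PP. With any overlap with the CDS, 61.8% of peaks in hPSCs, 60.9% in DE and 51.0% for WT PP counted as CDS, and with the MANE isoform 38.5% did in A5-KO PP. With the MANE isoform, for the 5′ UTR chosen after seeing the data, 2.44% of peaks in DE, 1.45% in hILO, 10.5% for WT PP and 7.69% for A5-KO PP lay in the 5′ UTR. GGAC in place of DRACH was present in 53.6%, 47.7%, 44.3%, 52.0%, 54.7% and 62.9% of peaks in the order of lists. The median log2 ratio of pooled reads was 3.16, 1.25, 2.09, 1.39, 1.80 and 1.95. With this ratio centred on all pairs, the median difference was 0.0103 for DE minus hPSC and 0.22 for hILO minus hPSC.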
